A study of Mus musculus with 4 samples.

Results

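The 10 genes described here act at the receiving end of canonical Wnt signalling. They are the DNA-binding effectors Tcf7l1, Tcf7, Lef1 and Tcf7l2, the feedback targets Axin2, Sp5 and Nkd1, and the secreted antagonists Dkk1, Sfrp1 and Sfrp5. All 10 were found among the 37620 Ensembl genes of the raw table and among the 15462 genes that the authors' filter on low counts kept. They were measured in R1 mouse embryonic stem cells (ESCs) of strain 129/Sv, either wild type (WT) or with Cripto, the gene Tdgf1, knocked out (Cripto KO), grown in serum/LIF or, after seeding at low density, in N2B27 medium for 6 days with Activin A (20 ng/ml) plus bFGF, called F/A. Serum/LIF maintains ESCs and F/A converts WT ESCs into epiblast stem cells (EpiSCs), and Cripto is a membrane co-receptor for Nodal. The study reports this conversion as impaired in Cripto KO cells. Each of the 4 combinations was sequenced as 1 library, so no difference below has a replicate check among these libraries, and intervals cover counting error only. The knockout cells come from a clonal line, the study used 2 such clones, and which of them was sequenced is not given in the sources used here, so genotype and clone cannot be told apart in these libraries.

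In the canonical Wnt pathway, secreted Wnt ligands bind Frizzled receptors with the co-receptors Lrp5 and Lrp6, which stops the Axin, Apc and Gsk3 complex from marking beta-catenin for degradation. Beta-catenin then enters the nucleus and binds TCF/LEF factors at target genes, among them Axin2, Sp5 and Nkd1, which act back on the pathway. In naive mouse ESCs Tcf7l1 represses genes of self-renewal until beta-catenin relieves it, and in the embryo the pathway drives formation of the primitive streak and mesoderm.

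Raw gene counts summed to between 15230856 and 17315442 per library. A detection limit of 3 counts was used, raised to 6 counts in F/A Cripto KO, where only 3 genes had an odd count (0.0160% of the genes with counts, against 53.1% to 53.6% elsewhere). Tdgf1 had 18714 raw counts in WT and 945 in Cripto KO in serum/LIF, against 1572 and 86 in F/A, so the Cripto KO libraries held 5.72% of the WT normalized level in serum/LIF and 5.62% in F/A. The 8 naive ESC markers summed to 4262 and 3868 CPM (raw counts scaled to a common library total) in the serum/LIF libraries of WT and Cripto KO and to 67.4 and 62.8 in the F/A libraries, with Nr0b1 and Dppa3 at 0 in both F/A libraries. The 6 primed epiblast markers that could be matched summed to 207.7, 221.3, 1809 and 1470 CPM in serum/LIF WT, serum/LIF Cripto KO, F/A WT and F/A Cripto KO, and among them Fgf5 had 3, 1, 2206 and 394 raw counts. Krt18, at 14581 and 16184 raw counts in F/A WT and F/A Cripto KO, made most of these F/A sums. Otx2 had 1307, 1023, 2375 and 678. Within F/A, 2 of 6, Fgf5 and Otx2, were lower in Cripto KO by 2-fold or more and 0 higher, beside 5.23% and 3.93% of all genes. In bulk RNA, a change in the number of cells that express a gene and a change in RNA per cell cannot be told apart.

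The promoters of Sp5 and Dkk1, the members with the fewest counts in serum/LIF, and a Lef1 promoter are shown beside that of Axin2 because they differ in how often they hold the core motif that TCF/LEF factors bind. RefSeq promoter windows, from 250 bases before to 50 bases after the start site, were held for 9 of the 10 members, in 14 windows since Lef1, Tcf7 and Tcf7l2 have several. The letters CTTTGA and CTTTGT were searched on both strands; 2 matches can share at most 1 base. Of 32851 RefSeq mouse windows of 300 bases, 31.2% held at least 1 match and 1.14% held 3 or more. Among the members, 5 of 14 windows held a match and 3 held 3 or more. The Sp5 window held 5 matches, a number reached or passed by 0.0365% of all windows. The part before the start site follows, 5′ to 3′ on the strand of each gene, with the matches in capitals.
Sp5: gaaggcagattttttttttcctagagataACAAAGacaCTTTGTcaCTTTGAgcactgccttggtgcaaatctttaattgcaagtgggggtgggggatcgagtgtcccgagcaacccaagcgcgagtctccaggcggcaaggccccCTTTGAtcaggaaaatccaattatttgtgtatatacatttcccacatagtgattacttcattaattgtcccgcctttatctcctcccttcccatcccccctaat
Dkk1: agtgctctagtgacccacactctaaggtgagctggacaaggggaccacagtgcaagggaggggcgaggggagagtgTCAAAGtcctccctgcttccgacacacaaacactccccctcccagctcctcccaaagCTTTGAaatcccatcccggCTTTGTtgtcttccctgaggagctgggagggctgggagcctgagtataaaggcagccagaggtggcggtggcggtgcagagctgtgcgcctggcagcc
Lef1 internal start: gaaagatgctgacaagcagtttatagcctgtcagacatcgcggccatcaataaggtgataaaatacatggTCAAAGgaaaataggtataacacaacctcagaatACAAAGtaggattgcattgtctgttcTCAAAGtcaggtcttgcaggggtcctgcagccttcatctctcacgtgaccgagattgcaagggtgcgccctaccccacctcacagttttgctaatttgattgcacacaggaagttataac
Axin2: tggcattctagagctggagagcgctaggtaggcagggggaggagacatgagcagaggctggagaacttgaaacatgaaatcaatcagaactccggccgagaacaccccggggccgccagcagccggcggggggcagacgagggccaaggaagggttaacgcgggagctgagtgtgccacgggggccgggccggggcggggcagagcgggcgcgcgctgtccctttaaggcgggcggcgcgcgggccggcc
The windows, with the 50 bases after the start included, lie in GRCm38.p6 at chr2:70474673-70474972 on the plus strand for Sp5, at chr19:30549447-30549746 on the minus strand for Dkk1, at chr3:131156044-131156343 on the plus strand for Lef1 and at chr11:108920099-108920398 on the plus strand for Axin2. Each window was also found once, letter for letter, in NCBIM37, the build of the counts. The fifth Sp5 match lies 42 bases past the start site and is not printed. The 3 Dkk1 matches begin 174, 117 and 98 bases before the RefSeq start, which lies 169 bases inside the start of the NCBIM37 gene model. The Lef1 window with 3 matches belongs to an internal start 45823 bases into the gene, and the other 3 Lef1 windows held none. Tcf7l1 and the internal start of Tcf7l2 had 1 match each. Axin2, Nkd1, Sfrp5 and Tcf7 had none in these windows. A match is a description of letters, and the data hold no binding measurement.

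From serum/LIF to F/A the main TCF/LEF difference in WT cells was in the factors other than Tcf7l1. Tcf7l1, on chr6:72576372-72739248 in NCBIM37, is the most repressive of the family in ESCs, and it had 1952 raw counts in WT and 2250 in Cripto KO in serum/LIF, against 1890 and 1276 in F/A. The F/A Cripto KO library was the lowest of the 4 and the other 3 lay close together. On the normalized scale F/A was at 1.03 times serum/LIF in WT (95% counting interval 1.03 to 1.17) and at 0.577 times in Cripto KO (0.536 to 0.640). Ratios come from the normalized values and intervals from raw counts scaled by library totals, so a ratio near 1 can sit at the edge of its interval. Tcf7l1 shares 179 exon bases with Gm15401, a gene on the opposite strand with at most 248 counts, and since no strand option is stated for the counting, reads there cannot be assigned.

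Tcf7 (chr11:52065873-52096681), which with beta-catenin mainly activates, had 614 raw counts in WT and 602 in Cripto KO in serum/LIF, against 1206 and 1538 in F/A. Both F/A libraries were above both serum/LIF libraries. The normalized ratio of F/A to serum/LIF was 2.09 in WT (2.02 to 2.46) and 2.55 in Cripto KO (2.37 to 2.94).

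Lef1 (chr3:130813389-130927274), the family member that is itself a Wnt target in many tissues, had 209 raw counts in WT and 90 in Cripto KO in serum/LIF, against 844 and 1538 in F/A. The order of the genotypes was opposite in the 2 cultures, with WT higher in serum/LIF and Cripto KO higher in F/A. F/A was 4.41-fold higher than serum/LIF in WT (3.94 to 5.37) and 16.8-fold higher in Cripto KO (14.2 to 22.2). Counts were summed over the gene, so the internal start shown above cannot be separated from the others.

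Tcf7l2 (chr19:55816300-56008144), the effector best known from the intestine, had 349 raw counts in WT and 325 in Cripto KO in serum/LIF, against 772 and 446 in F/A. Its level in F/A was above serum/LIF in both genotypes, by 2.38-fold in WT (2.21 to 2.86) and at 1.30 times in Cripto KO (1.19 to 1.69), which is below the 2-fold used as a call.

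Per length, the make-up of the TCF/LEF family shifted from Tcf7l1 towards Tcf7 and Lef1 in F/A, and further in F/A Cripto KO. With RPKM (reads per kb of median transcript length, scaled by the library total), the level of Tcf7l1 was 40.5 in WT and 49.7 in Cripto KO in serum/LIF, against 44.6 and 29.1 in F/A. Its share of the 4 genes was 59.1%, 65.0%, 37.9% and 25.3% in the same order. The share of Lef1 was 5.22%, 2.14%, 13.9% and 25.1%, and that of Tcf7 was 24.6%, 23.0%, 31.9% and 40.3%. Tcf7l2 held between 9.27% and 16.2%. The shares depend on the length used, because several of these genes have short annotated transcripts beside long ones. With the union of all exons as length, a choice made after the data were seen, the Tcf7l1 share was 67.4%, 72.0%, 47.9% and 33.0% and the Lef1 share 2.77%, 1.11%, 8.22% and 15.3%. Under both lengths Tcf7l1 had the largest share in the other 3 libraries and Tcf7 in F/A Cripto KO, where Tcf7 stood at 47.4% with the union length.

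**Figure D1:**
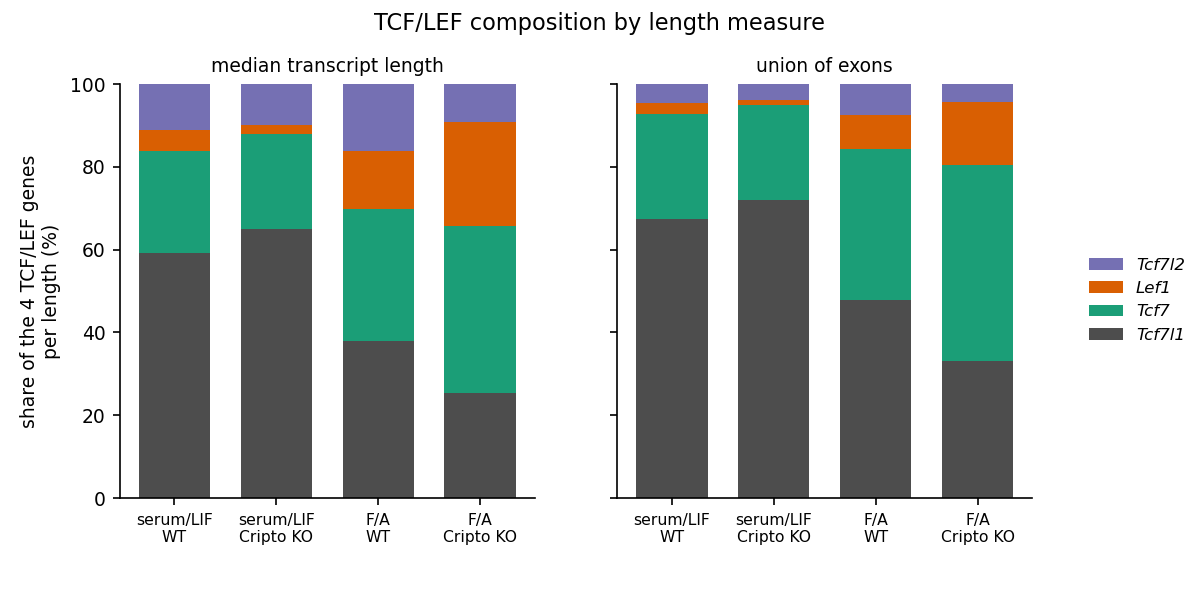
Share of Tcf7l1, Tcf7, Lef1 and Tcf7l2 in their summed level per length (vertical axis, percent) in each of the 4 libraries (horizontal axis), with median transcript length on the left and the union of exons on the right. The Tcf7l1 part falls from 59.1% in serum/LIF WT to 25.3% in F/A Cripto KO on the left and from 67.4% to 33.0% on the right.

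Axin2, Sp5 and Nkd1, the feedback targets, were all higher in F/A than in serum/LIF in both genotypes. Axin2 (chr11:108781663-108812097), a scaffold of the beta-catenin destruction complex and the most used readout of the pathway, had 145 raw counts in WT and 99 in Cripto KO in serum/LIF, against 556 and 848 in F/A. As with Lef1, WT was the higher genotype in serum/LIF and Cripto KO in F/A. F/A was 4.27-fold higher in WT (3.62 to 5.27) and 8.29-fold higher in Cripto KO (7.09 to 11.1). Axin2 shares 209 exon bases with the antisense gene Gm11670, which had at most 66 counts.

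Sp5 (chr2:70312980-70315786), a zinc finger factor that binds many Wnt-regulated enhancers, had 10 raw counts in WT and 20 in Cripto KO in serum/LIF, against 1001 and 1680 in F/A. Its level went from 0.578 and 1.23 CPM in serum/LIF to 65.7 and 106.7 in F/A, in WT and Cripto KO. F/A was 132-fold higher in WT (61.6 to 238.0) and 87.3-fold higher in Cripto KO (55.8 to 142.8).

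Nkd1 (chr8:91045243-91118786), which binds Dishevelled and dampens the signal, had 41 raw counts in WT and 30 in Cripto KO in serum/LIF, against 368 and 792 in F/A. The serum/LIF libraries lay close together and the F/A libraries apart. F/A was 11.1-fold higher in WT (7.38 to 14.5) and 26.2-fold higher in Cripto KO (18.8 to 41.0).

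The 3 secreted antagonists behaved differently from each other. Dkk1 (chr19:30620353-30624155), which blocks the Lrp5 and Lrp6 co-receptors, had 1 raw count in WT and 3 in Cripto KO in serum/LIF, against 1055 and 940 in F/A. Both serum/LIF libraries were at or under the detection limit. The log2 ratio of F/A to serum/LIF was 10.48 in WT (counting interval 7.75 to 15.53) and 8.29 in Cripto KO (6.78 to 10.62), and the width of both intervals comes from these few serum/LIF counts.

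Sfrp1 (chr8:24521974-24560104), which binds Wnt ligands outside the cell, had 2035 raw counts in WT and 1903 in Cripto KO in serum/LIF, against 1904 and 1188 in F/A. As with Tcf7l1, F/A Cripto KO stood below 3 similar libraries. F/A was at 1.01 times serum/LIF in WT (0.999 to 1.13) and at 0.636 times in Cripto KO (0.587 to 0.708).

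Sfrp5 (chr19:42272461-42276742), a relative of Sfrp1 expressed in embryonic endoderm, was low in every library, with 46 raw counts in WT and 28 in Cripto KO in serum/LIF, against 20 and 50 in F/A. The ratio of F/A to serum/LIF was 0.541 in WT (0.277 to 0.852) and 1.92 in Cripto KO (1.03 to 3.28). These lie on opposite sides of 1 and neither passed 2-fold.

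**Figure D2:**
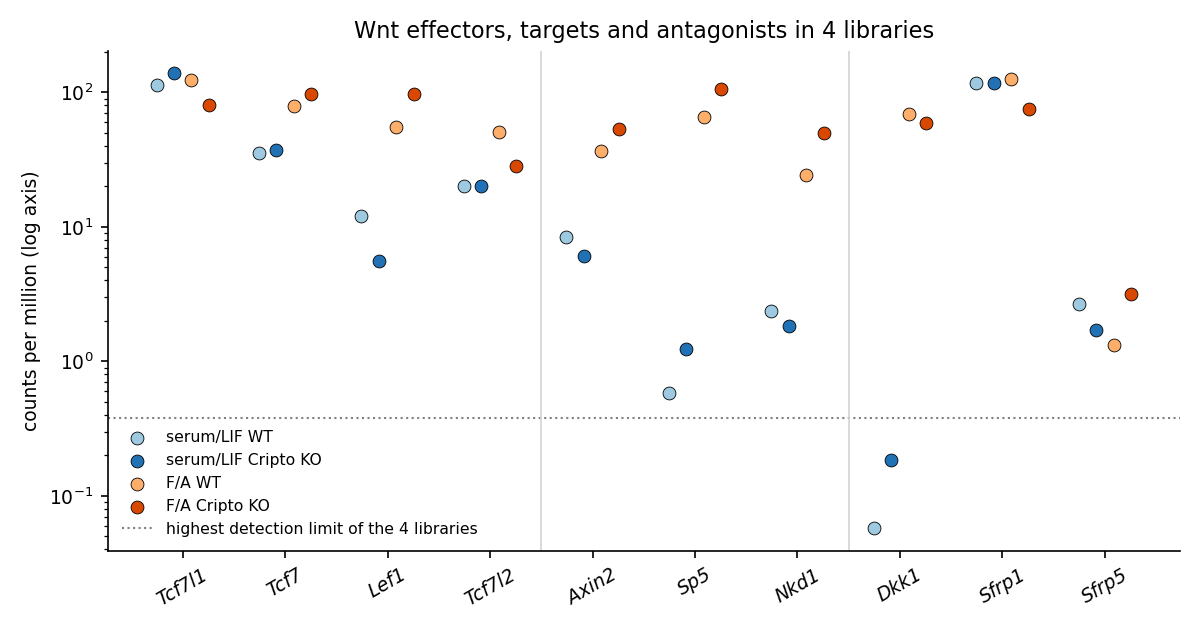
Level in CPM (vertical log axis) of the 10 members (horizontal axis) in each of the 4 libraries, 1 point per library, with effectors, targets and antagonists separated by grey lines. The dotted line is the highest detection limit, 0.381 CPM in F/A Cripto KO, and only Dkk1 in the serum/LIF libraries lies under it.

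Set against all genes, more members were higher in F/A than the background share and none was lower. In WT, 7 of 10 members were higher in F/A by 2-fold or more (Axin2, Lef1, Tcf7, Tcf7l2, Sp5, Dkk1 and Nkd1) beside 22.1% of the 15462 genes, and 0 of 10 were lower beside 20.9%. The median log2 ratio of the members was 1.67 and that of all genes was -0.07. In Cripto KO, 6 of 10 were higher beside 19.8% of genes, the same members without Tcf7l2, and 0 of 10 were lower beside 19.4%, with a median of 2.20 beside -0.07. Dkk1, at 0.0578 and 0.184 CPM in serum/LIF WT and Cripto KO, passed the filter only through F/A and could not come out lower. Sp5, at 0.578 and 1.23 CPM there, had little room to be lower. The member counts were thus partly fixed in advance. The WT counting interval lay above 1 for 8 members, below 1 for Sfrp5 and held 1 for Sfrp1, and the Cripto KO interval lay above 1 for 8 members and below 1 for Tcf7l1 and Sfrp1. Ctnnb1, which encodes beta-catenin itself, had 17449, 14710, 20093 and 21916 raw counts in serum/LIF WT, serum/LIF Cripto KO, F/A WT and F/A Cripto KO, and its transcript in F/A was at 1.48 times serum/LIF in WT and at 1.59 times in Cripto KO on the normalized scale, where raw counts scaled by library totals give an interval of 1.28 to 1.34 in WT and one with an upper end of 1.58 in Cripto KO. The 8 mesoderm markers moved with this step, from 7.10 and 6.52 CPM in serum/LIF to 623.8 and 425.8 in F/A, in WT and Cripto KO. T, at 8748 and 5598 raw counts in F/A, made most of these F/A sums. The endoderm markers went from 8.78 and 7.87 CPM to 305.0 and 249.2, the neural markers from 88.9 and 99.1 to 328.1 and 312.4, and the trophoblast markers from 84.7 and 49.7 to 224.1 and 257.3. The sums hide markers that fell. In each genotype 3 of 5 neural markers were higher by 2-fold or more and Tubb3 lower. The neural rise came mainly from Nes, at 217 and 206 raw counts in serum/LIF and 4460 and 4210 in F/A. In each genotype 5 of 7 trophoblast markers were higher, and Tfap2c and Ascl2 lower. Markers that passed the filter only through F/A could not come out lower. Transcript length moved with the log2 ratio too, with a Spearman correlation of 0.246 in WT and 0.0758 in Cripto KO across 9653 genes. The part of these in the members' ratios was not tested.

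**Figure D3:**
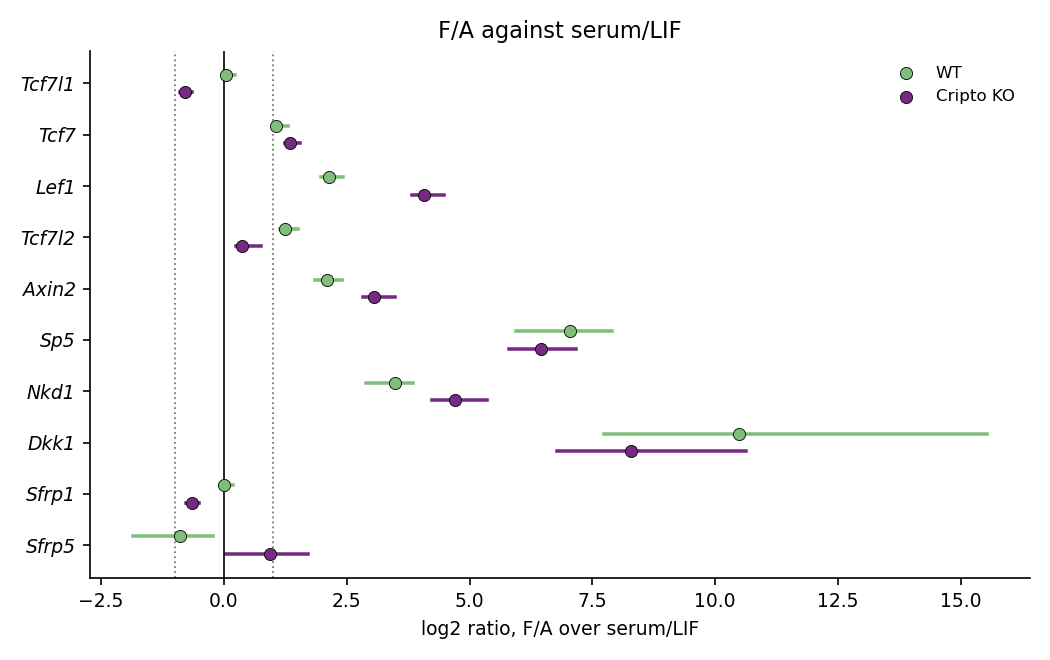
Log2 ratio of F/A to serum/LIF (horizontal axis) for each member (vertical axis) in WT and in Cripto KO. Points are ratios of normalized values, bars are 95% counting intervals from raw counts, and dotted lines mark 2-fold; the Cripto KO point lies right of the WT point for Tcf7, Lef1, Axin2, Nkd1 and Sfrp5 and left of it for the other 5.

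The step from serum/LIF to F/A was unlike in the genotypes for several members, and in both directions. The log2 ratio in Cripto KO minus that in WT was 1.93 for Lef1 (counting interval 1.56 to 2.33), 1.83 for Sfrp5 (0.81 to 2.99), 1.24 for Nkd1 (0.71 to 2.13) and 0.95 for Axin2 (0.61 to 1.43). It was -0.87 for Tcf7l2 (-1.13 to -0.52), -0.84 for Tcf7l1 (-1.07 to -0.75) and -0.66 for Sfrp1 (-0.88 to -0.56). Tcf7 had 0.29 (0.03 to 0.45). For Sp5 and Dkk1 the values of -0.60 (-1.49 to 0.71) and -2.19 (-5.16 to 1.38) carried intervals that held 0. The median over the 10 was -0.15, and 4 of 10 (Lef1, Sfrp5, Nkd1 and Dkk1) passed 1 in size where 17.1% of all genes did. Of these, Dkk1 rested on 1 and 3 raw counts in serum/LIF and was at -0.67 with 5 added to every value, and Axin2 reached up to 1.03 under the 3 other scalings, so that the count ran from 3 to 5 over the settings.

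Within F/A, 2 of 10 members passed 2-fold between the genotypes, Nkd1 and Sfrp5, and the other 8 lay within 2-fold of WT on either side. Nkd1 was 2.07-fold higher in Cripto KO than in WT (1.80 to 2.41) and Sfrp5 was 2.52-fold higher (1.29 to 4.59) on 20 and 50 raw counts. Over all genes 3.93% were higher, and 0 of 10 members were lower beside 5.23%. Lef1 stood at 1.83 times WT (1.60 to 1.95), Sp5 at 1.68 times (1.48 to 1.78), Axin2 at 1.47 times (1.30 to 1.68) and Tcf7 at 1.28 times (1.13 to 1.35). On the other side, Tcf7l2 stood at 0.557 times WT (0.479 to 0.650), Sfrp1 at 0.612 times (0.550 to 0.662), Tcf7l1 at 0.661 times (0.596 to 0.715) and Dkk1 at 0.877 times (0.772 to 0.962). The counting interval excluded 1 for all 10 members, above it for 6 and below it for 4, but with 1 library per group it does not measure the spread between cultures. The median log2 ratio was 0.46, and that of all genes was 0. Scaling by library totals in place of quantile normalization moved the split of all genes past 2-fold from 608 higher and 809 lower to 519 higher and 1053 lower.

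In serum/LIF the 2 genotypes were close for most members. Lef1 was lower in Cripto KO, at 0.481 times WT (0.354 to 0.590), the 1 member of 9 called lower, beside 2.5% of genes. Sp5 was the 1 member called higher, at 2.55 times on 10 and 20 raw counts, with an interval that held 1 (0.951 to 5.09), beside 2.48% of genes. Axin2 was at 0.759 times (0.557 to 0.945) and Tcf7l1 at 1.18 times (1.15 to 1.30). Tcf7, Tcf7l2, Sfrp1, Sfrp5 and Nkd1 had intervals that held 1, and Dkk1 has no fold because both libraries were at or under the detection limit. The median log2 ratio of the 9 was -0.05, and that of all genes was 0. The 8 trophoblast markers stood beside this at 84.7 CPM in WT and 49.7 in Cripto KO, with 2 of 4 lower by 2-fold or more and Elf5 at 0 in both, and their part was not tested. With library totals as the scaling, the split of all genes moved from 384 higher and 386 lower to 254 higher and 481 lower. The comparisons share libraries in pairs, so a library that stands apart touches 2 of them.

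**Figure D4:**
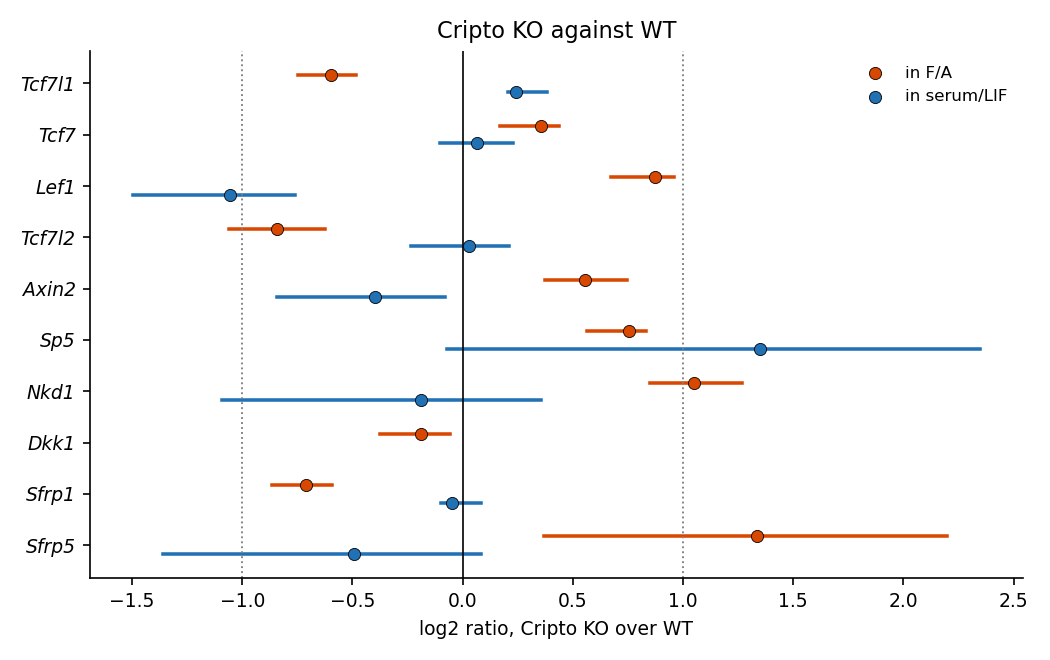
Log2 ratio of Cripto KO to WT (horizontal axis) for each member (vertical axis) in F/A and in serum/LIF. Points are ratios of normalized values, bars are 95% counting intervals and dotted lines mark 2-fold; Lef1 and Axin2 lie left of 0 in serum/LIF and right of it in F/A, Tcf7l1 the reverse, and Dkk1 has no serum/LIF point.

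Other measures moved with these differences in F/A. The 8 fibroblast markers summed in F/A to 90.9 CPM in WT and 245.2 in Cripto KO, with 4 of the 7 that passed the filter higher by 2-fold or more, among them Col3a1 at 72 and 610 raw counts, and Dcn at 5 and 18, while Lum had 5 and 4. The 8 mesoderm markers summed to 623.8 and 425.8 CPM, the 7 endoderm markers to 305.0 and 249.2, the 8 trophoblast markers to 224.1 and 257.3 with Elf5 at 2 and 0 raw counts, and the 7 neural markers to 328.1 and 312.4. T, at 8748 and 5598 raw counts, made most of the mesoderm sums, and the median log2 ratio of the mesoderm markers was -0.08. Of the mesoderm markers 1 of 8 was higher and 2 of 8 lower in F/A Cripto KO, of the endoderm markers 0 of 7 and 2 of 7, of the trophoblast markers 2 of 7 and 2 of 7, and of the neural markers 1 of 5 and 0 of 5. Over all genes 3.93% were higher and 5.23% lower. The 1 neural marker, Zic1, on 5 and 22 raw counts, passed the filter only through F/A Cripto KO and could not come out lower. Log2 ratios of Cripto KO to WT in F/A also varied with transcript length, with a Spearman correlation of -0.347 across 9653 genes, which are not replicates. After the running median over length was taken off, the ratios of Axin2, Sfrp1 and Nkd1 were 0.38, -0.52 and 1.23 on the log2 scale in place of 0.56, -0.71 and 1.05. Length here is the median annotated transcript. For Axin2 that is 1051 bases, against 5506 for the union of its exons, so its adjusted value depends on the length used. The part of these measures in the members' differences was not tested.

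The genes whose profile over the 4 libraries was nearest to that of Axin2, among 10810 genes with at least 200 raw counts in their highest library, were Tspan9, Arhgap28 and Heg1. Likeness was the Euclidean distance between centred log2 values, and it was 0.08 for Tspan9, 0.21 for Arhgap28 and 0.22 for Heg1. Tspan9 had 427, 318, 1777 and 2514 raw counts in serum/LIF WT, serum/LIF Cripto KO, F/A WT and F/A Cripto KO. Of the other members Lef1 came closest, at rank 240 and a distance of 0.74, followed by Tcf7 at rank 1020 and Nkd1 at rank 1255. With 4 libraries many genes can have a like profile.

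Among the rest of the pathway, Wnt ligands were the list with the most members higher in F/A. Of 19 ligands 16 passed the filter, and 15 of 16 were higher in F/A by 2-fold or more in each genotype, 0 of 16 lower. Over all genes 22.1% were higher and 20.9% lower in WT, and 19.8% and 19.4% in Cripto KO. Of the 19, 7 were at or under the detection limit in serum/LIF in each genotype and 2 in F/A. Ligands that passed the filter only through F/A could not come out lower, so these counts were partly fixed in advance. The ligand median of the log2 ratio was 3.26 in WT and 4.80 in Cripto KO, or 4.02 with ligands at 0 counts set to the detection limit. Wnt5a, a ligand best known for non-canonical signalling, had 34, 37, 1002 and 1398 raw counts in serum/LIF WT, serum/LIF Cripto KO, F/A WT and F/A Cripto KO, and Wnt3, which acts in the primitive streak, had 8, 5, 309 and 244. Runs of 4 raw counts below keep this order of libraries. Between genotypes in F/A, 5 of 16 ligands were higher in Cripto KO and 0 lower, beside 3.93% and 5.23% of all genes. Of the 5, Wnt2 had 6 raw counts in WT and 52 in Cripto KO, and Wnt3a 6 and 28. Both passed the filter only through F/A Cripto KO and could not come out lower, so this count was also partly fixed in advance. The ligand median of the log2 ratio was 0.54. Wnt6 had 314 raw counts in WT and 1226 in Cripto KO, 3.80-fold higher (3.29 to 4.34). In serum/LIF 1 of 11 was higher and 1 of 11 lower, beside 2.48% and 2.5% of all genes, with a ligand median of -0.08.

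The receptor list held 14 genes, since Fzd10 has 2 identifiers under 1 symbol and was left out. In WT 9 of 14 were higher in F/A and 1 lower, beside 22.1% and 20.9% of all genes. In Cripto KO 7 were higher and 2 lower, beside 19.8% and 19.4%. Fzd2 had 50, 84, 1988 and 3640 raw counts, and Ror1, a receptor tyrosine kinase that binds Wnt5a, had 4, 8, 367 and 298. Ror1 passed the filter only through F/A and could not come out lower there. Fzd5, a Frizzled used by canonical ligands, had 6488, 5042, 3999 and 630, and within F/A it was at 0.152 times WT in Cripto KO (0.135 to 0.171). It was the 1 receptor of 14 lower there, beside 5.23% of all genes. Fzd9, on 8 and 16 raw counts, was the 1 higher, beside 3.93%. In serum/LIF 2 of 14 were higher in Cripto KO and 0 lower, beside 2.48% and 2.5% of all genes. The medians of the 14 log2 ratios were 1.44 and 1.64 for F/A against serum/LIF in WT and Cripto KO, and -0.17 and 0.07 for Cripto KO against WT in F/A and serum/LIF.

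Of 16 regulators of beta-catenin inside the cell, 6 were higher in F/A in WT beside 22.1% of all genes. In Cripto KO 3 were higher beside 19.8%, a share near the background. In both genotypes 0 were lower, beside 20.9% in WT and 19.4% in Cripto KO. Between genotypes, beside 2.48% to 5.23% of all genes in each direction, 0 of 16 regulators passed 2-fold in F/A or in serum/LIF. Their median log2 ratios were 0.62, 0.42, -0.03 and 0.13 for F/A against serum/LIF in WT and in Cripto KO and for Cripto KO against WT in F/A and in serum/LIF. Tnks, a tankyrase that destabilises Axin, had 1127, 1488, 4699 and 3014 raw counts, and the kinase Gsk3b had 835, 933, 2987 and 2162. Among 12 nuclear cofactors 4 were higher and 3 lower in F/A in WT, beside 22.1% and 20.9% of all genes. In Cripto KO 2 were higher and 2 lower, beside 19.8% and 19.4%, which is near the background. Bcl9l, which bridges beta-catenin to Pygopus, was 8.09-fold higher in F/A in WT (7.18 to 9.72), and Aes, a short Groucho-related protein, was at 0.111 times (0.107 to 0.127). Between genotypes 1 of 12 cofactors was higher in Cripto KO in F/A and 0 lower, beside 3.93% and 5.23% of all genes. In serum/LIF 0 of 12 passed 2-fold, beside 2.48% higher and 2.5% lower. The cofactor medians over the 4 comparisons in the same order were 0.50, 0.14, -0.23 and -0.02.

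Of 15 other extracellular antagonists, 11 passed the filter. In WT 4 were higher and 4 lower in F/A, beside 22.1% and 20.9% of all genes. In Cripto KO 6 were higher and 1 lower, beside 19.8% and 19.4%. Of the 15, 6 were at or under the detection limit in serum/LIF in each genotype. Those that passed the filter only through F/A could not come out lower. Frzb, a secreted Frizzled-related protein, had 1, 2, 817 and 1118 raw counts, while Notum, a deacylase that inactivates Wnt ligands and is itself a target, had 322, 140, 29 and 156. Notum was lower in Cripto KO than in WT in serum/LIF, at 0.491 times (0.377 to 0.566), as Lef1 was. Cer1, which also blocks Nodal and BMP ligands, was at 0.176 times WT in F/A Cripto KO (0.120 to 0.234). In F/A 3 of 11 were higher and 1 lower in Cripto KO, beside 3.93% and 5.23% of all genes. Of the 3, Sost, on 6 and 20 raw counts, passed the filter only through F/A Cripto KO and could not come out lower. In serum/LIF 0 of 8 were higher and 2 of 8 lower, beside 2.48% and 2.5%. The medians were 0.81 and 1.47 between cultures in WT and Cripto KO, and 0.44 and -0.16 between genotypes in F/A and serum/LIF.

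The R-spondin axis acts on receptor levels at the cell surface. In WT 4 of its 9 genes were higher and 3 lower in F/A, beside 22.1% and 20.9% of all genes. In Cripto KO 3 were higher and 3 lower, beside 19.8% and 19.4%. Genes of this axis that passed the filter only through 1 culture could come out in only 1 direction. Rspo3 had 18, 20, 697 and 816 raw counts and the ubiquitin ligase Rnf43 had 17, 17, 224 and 204. Lgr5, an R-spondin receptor and a target of the pathway, had 1, 0, 258 and 100, so that F/A Cripto KO was at 0.394 times F/A WT (0.271 to 0.509). Between genotypes 0 of 9 were higher and 3 of 9 lower in F/A, beside 3.93% and 5.23% of all genes. Of the 3, Rspo4 and Lgr6 rested on 6 raw counts each in WT and 2 each in Cripto KO. In serum/LIF 0 of 8 passed 2-fold in either direction, beside 2.48% higher and 2.5% lower. The medians were 0.77 and -0.37 between cultures in WT and Cripto KO, and -0.65 and 0.25 between genotypes in F/A and serum/LIF.

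The 19 other Wnt target genes, 18 of which passed the filter, were mostly higher in F/A, and within F/A those past 2-fold were split between the genotypes. In WT 13 of 18 were higher and 3 lower, beside 22.1% and 20.9% of all genes. In Cripto KO 10 were higher and 2 lower, beside 19.8% and 19.4%. The median log2 ratio of these targets was 2.36 in WT and 1.74 in Cripto KO. Of the 19, 5 were at or under the detection limit in serum/LIF in each genotype. Those that passed the filter only through F/A could not come out lower. Within F/A, 4 of 18 were higher in Cripto KO and 4 lower, beside 3.93% and 5.23% of all genes, with a target median of -0.17. Cdx2, a caudal factor of trophectoderm and posterior mesoderm, went in F/A from 104 raw counts in WT to 674 in Cripto KO, 6.37-fold higher (5.02 to 7.89). Ccnd1, cyclin D1, was 2.12-fold higher (1.87 to 2.17) and the receptor gene Tnfrsf19 2.03-fold higher (1.79 to 2.06). The primitive streak gene T (Brachyury) had 13, 4, 8748 and 5598 raw counts, and Fgf8 had 2, 2, 1256 and 1066. In serum/LIF 0 of 14 were higher and 2 of 14 lower in Cripto KO, beside 2.48% and 2.5% of all genes. The lower ones were T, on 13 and 4 raw counts, and Notum, and the median of the 14 was 0.04. Lgr5, Notum, Rnf43 and Znrf3 stand in 2 lists.

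The 6 genes listed as repressed by Tcf7l1 in ESCs all stood lower in F/A by 2-fold or more, in both genotypes. Over all genes 20.9% were lower in WT and 19.4% in Cripto KO. Those of the 6 that passed the filter only through serum/LIF, among them Esrrb and Tcl1, could not come out higher. The count of 6 was thus partly fixed in advance. The median log2 ratio of the 6 was -7.32 in WT and -7.67 in Cripto KO, or -7.33 with genes at 0 counts set to the detection limit. Esrrb had 15699, 16258, 13 and 8 raw counts and Klf2 had 6136, 5420, 16 and 12. Within F/A, 2 of 5 with a fold were lower in Cripto KO, where 5.23% of all genes were. They were Nanog at 0.482 times WT (0.352 to 0.622) and Tfcp2l1 at 0.437 times (0.358 to 0.529), beside the Tcf7l1 value of 0.661 times. In serum/LIF 0 of 6 passed 2-fold, beside 2.48% of all genes higher and 2.5% lower. Esrrb, Klf2 and Tfcp2l1 are also among the naive ESC markers.

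**Figure D5:**
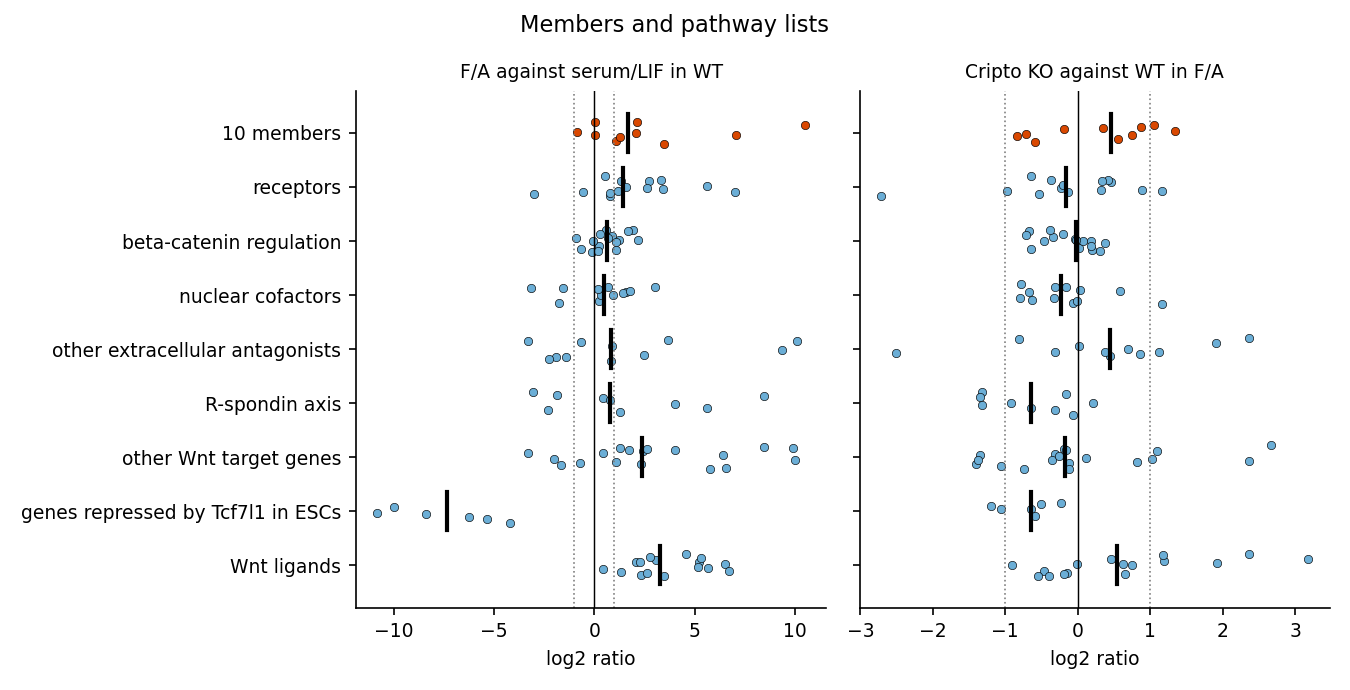
Log2 ratios (horizontal axis) of the 10 members and of the genes of each pathway list (vertical axis, 1 point per gene that passed the filter), for F/A against serum/LIF in WT on the left and Cripto KO against WT in F/A on the right. Thick bars are medians of genes with a fold and dotted lines mark 2-fold; on the left the bar stands at 1.67 for the members, 3.26 for Wnt ligands and -7.32 for genes repressed by Tcf7l1, and on the right at 0.46, 0.54 and -0.65.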

How the data were processed

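RNA of 4 cultures was sequenced. Per the labels and the study's methods, the authors aligned reads with TopHat2 2.0.13 to mm9 (NCBIM37), and htseq-count 0.6.1p1 assigned them to the genes of Ensembl 67. The strand option is not given in the sources used here. The deposited raw table holds whole-number counts of reads per gene. The second deposited table holds a signal made by the authors from these counts, full quantile-normalized values of the genes kept by a proportion filter. Recomputing that normalization gave the deposited values with a largest difference of 0.

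Symbols, coordinates and lengths came from an annotation of the same build (Ensembl 65), which named 98.9% of the genes. Promoter sequences came from RefSeq (GRCm38.p6). Fzd10, Pou3f1 and Dab2 have several identifiers and Sox1 none, and they were left out. Protein sequences were not analysed here.

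Log2 ratios used the normalized values with 0 replaced by 0.5, and a gene was called at 2-fold unless both raw counts were at or under the limit of 3 (6 in F/A Cripto KO). Intervals are 95% Clopper-Pearson intervals on raw counts scaled by library totals, and Wald intervals for differences of 2 ratios, with F/A Cripto KO counts divided by 2 because nearly all are even. Levels per length use the median transcript. The length trend is a running median over 1001 genes. No p-value was computed. Scripts were tested on simulated data.

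The members and gene lists were chosen with earlier results of these data known. The genes named are the members, Tdgf1, Ctnnb1, Fgf5 and, per list and comparison, up to 4 genes past 2-fold with the largest change that reached 200 raw counts in either library, and for Axin2 the 3 nearest genes. Marker genes, Fzd9, Rspo4, Lgr6, Wnt2, Wnt3a, Sost and genes given only by their place in 2 lists were named after their values were seen. Alternatives were scaling by totals, by TMM (edgeR 4.0.16) and by size factors (DESeq2 1.42.0), 1 or 5 added, no filter, a mean of 50 counts, halved counts, the length trend, and other thresholds. Python 3.11.15 and matplotlib 3.10.9 were used.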

Additional observations from a re-analysis of the deposited data

Results flagged for a closer look

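For 4 members the same contrast had counting intervals on opposite sides of 1 in the 2 groups, and these differences were not tested, since each group is 1 library. The log2 ratio of Cripto KO to WT in F/A minus that in serum/LIF was 0.95 for Axin2 and 1.93 for Lef1, both lower in Cripto KO in serum/LIF and higher in F/A. It was -0.84 for Tcf7l1, which stood above WT in serum/LIF and below it in F/A. The log2 ratio of F/A to serum/LIF in Cripto KO minus that in WT was 1.83 for Sfrp5, on 20 to 50 raw counts, and -0.84 for Tcf7l1, whose WT ratio of 1.03 lay at the edge of its interval.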

How the results depend on the processing

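No paired analysis was possible because each group has 1 library. Of 436 values of single members under the other scalings, filters and added constants, 429 stayed within their counting interval's half-width of the value given, 7 moved past it and 0 changed sign among those past 2-fold. The settings with no filter and with a mean of at least 50 raw counts leave the value of a single member unchanged by construction. Their part of the 429 was therefore fixed in advance and measures no stability. The count of members lower in F/A in WT was 1 in place of 0 when scaled by library totals, by TMM factors or by DESeq2 size factors, and 1 at 1.5-fold; that member was Sfrp5. At 1.5-fold 2 members were lower in F/A in Cripto KO, and for Cripto KO against WT in F/A 4 were higher and 3 lower. At 3-fold, for Cripto KO against WT, 0 members were higher within F/A and 0 were higher and 0 lower within serum/LIF. When the counting interval also had to pass 2-fold, for Cripto KO against WT 0 were higher within F/A and 0 higher and 0 lower within serum/LIF, while the 7 (WT) and 6 (Cripto KO) members higher in F/A than in serum/LIF stayed past it. With 5 added to every value, for Cripto KO against WT 0 were higher within serum/LIF, Sp5 being lost. With a mean of at least 50 raw counts, which drops Sfrp5, 1 member was higher in Cripto KO in F/A, the median log2 ratio of F/A to serum/LIF was 2.10 in WT and 3.05 in Cripto KO, and the median difference between genotypes was -0.60. The shares of the TCF/LEF genes under the union of exons, added after seeing the data, stand with the main values. The precision is limited by few counts for Sp5 and Dkk1 in serum/LIF and for Sfrp5 everywhere.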
